A study of Mus musculus with 2 samples.

Results

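Solute carriers (Slc genes) encode membrane proteins that move nutrients, ions and metabolites across the plasma membrane and the membranes of organelles. Binding of the transcription factor STAT5 near them was described after interleukin 2 (IL-2) in mouse CD8 T cells of the OT-I kind, whose transgenic receptor recognises the ovalbumin peptide SIINFEKL. The members were all rows of the deposited gene table whose gene name starts with Slc and a digit, without the Slco genes. There were 72 such genes of 4934 listed. All cells were from C57BL/6 mice, were transferred into mice, were primed there with that peptide plus agonists of CD134 and CD137 (costimulatory receptors), and were sorted out of the spleen as effector cells on day 4. The IL-2 group then had 0.5 ug/ml IL-2 in culture for 1 hour (1 library), and the control group had no IL-2 (1 library). Chromatin immunoprecipitation with an anti-STAT5 antibody and sequencing (ChIP-seq) was done as a STAT5A assay. With 1 library in each group there was no replicate check, so every IL-2 against control value below is a comparison of these libraries, without a test. The number of mice behind a library is unknown here.

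Solute carrier families are numbered by sequence, and members of a family often share a kind of substrate. The IL-2 receptor activates the kinases JAK1 and JAK3, which phosphorylate STAT5. Phosphorylated STAT5 forms dimers and binds DNA at sites of the form TTCNNNGAA. Activated CD8 T cells take up more glucose, amino acids and other nutrients than resting ones, and IL-2 is known to help keep that uptake high.

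For each gene the table gives the mean height of the STAT5 signal over the gene's binding regions in each library, and the highest single peak (all in signal units). The depth of the libraries and any scaling between them are unknown here. A gene was listed because a region was called near it in the IL-2 library, so the heights were selected to be higher with IL-2. Regions of the control library were called near 0 of the 72 Slc genes and near 12 of all listed genes. The assay measures binding and not expression, so the cell type could not be checked by expression. The 6 T cell genes Cd8a, Cd8b1, Cd3e, Cd3d, Cd3g and Trac each had a region, and none of the 3 myeloid genes Lyz2, Csf1r and Itgam did. Only 19.1% of all protein-coding genes were listed, so having no region is the usual case. These genes are no check of the cell type.

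STAT5 heights near the Slc genes lay close to those near all listed genes. The median height was 21 with IL-2 (interquartile range 15 to 31.5, range 10 to 73) and 5 in control (4 to 5, range 1 to 9). Over all listed genes the medians were 20.75 with IL-2 (15 to 33) and 5 in control (4 to 5.8). The ratio of the heights, each with 5 signal units added, was at least 2 for 58 of the 72 Slc genes (80.6%), against 83.8% of all listed genes. It was at least 4 for 15 Slc genes (20.8%), against 23.1% of all listed genes, and at most 0.5 for 0 of the 72, against 0% of all listed genes. The median log2 ratio was 1.49 for the Slc genes (interquartile range 1.08 to 1.93) and 1.42 for all listed genes (1.08 to 1.94). An IL-2 height at or above the upper quartile of the table was held by 18 Slc genes (25%), against 25.5% of all listed genes. These shares lay near the background.

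**Figure D1:**
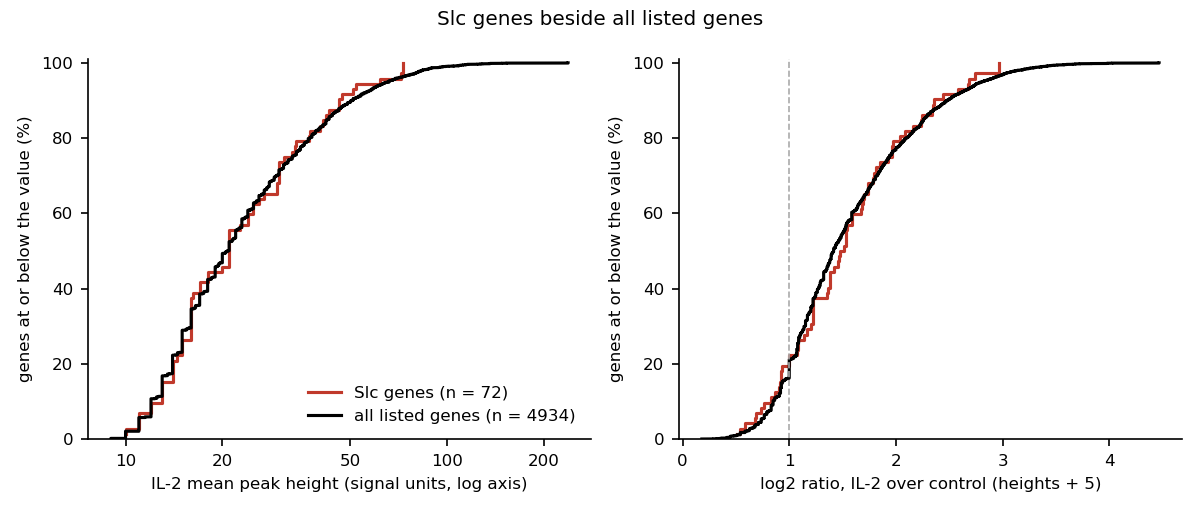
Share of genes (%, vertical axes) at or below a given IL-2 mean peak height (left, signal units on a log axis) and a given log2 ratio of IL-2 over control, with 5 added to each height (right), for the 72 Slc genes and the 4934 listed genes. The curves run close together up to the top, where the Slc genes end at a height of 73 and a log2 ratio of 2.96.

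Very high single peaks and several regions per gene were less frequent in the set than in the table. A highest peak of at least 80 was found at 2 of the 72 Slc genes (2.78%), against 8.92% of all listed genes, and more than 1 region at 14 of them (19.4%), against 33.3%. The Slc genes with several regions had a median IL-2 height of 29.8, and those with a single region one of 19. Over all listed genes these medians were 25.9 and 18, so the step from 1 to several regions was seen in the table as a whole too. The median gene length was 33126 bp for the Slc genes and 20658.5 bp for all listed genes. These differences, and the part of gene length in them, were not tested.

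Both libraries can also be set to the same median over all listed genes. The median log2 ratio of all listed genes then shifted by -1.28. A ratio of at least 2 remained for 6 Slc genes (8.33%), against 11.9% of all listed genes, and 46 Slc genes (63.9%) were higher with IL-2, against 58.7%. Those 6 were Slc14a1 and Slc14a2 (log2 ratio 1.49 each), Slc30a4 (1.40), Slc35g1 (1.32), Slc25a33 (1.28) and Slc38a2 (1.11). Directions given below for genes of moderate height hold for the heights as deposited.

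Of the 375 protein-coding Slc genes in RefSeq (assembly GRCm38.p6), 71 were in the table (18.9%), close to the 19.1% of all 21896 protein-coding genes. The remaining member, Slc2a4rg-ps, is a pseudogene. By substrate, 24 of 93 ion carriers (25.8%) were listed, 10 of 47 mitochondrial carriers (21.3%), 2 of 8 nucleoside carriers (25%), 21 of 124 carriers of other organic solutes (16.9%), 8 of 65 amino acid carriers (12.3%) and 4 of 33 sugar carriers (12.1%). As grouped here, carriers of amino acids and sugars were listed at a lower share, and ion carriers at a higher one, than all protein-coding genes. Apart from Slc5a6 and the genes that are no carriers, the groups follow family number, so they can hold carriers of other substrates. Family 6 counts as a whole with the amino acid carriers, and Slc17a7, a glutamate carrier, counts with the other organic solutes. Moving Slc5a6, a listed gene, out of the sugar carriers lowered their share. The shares depend on this grouping. None of these differences was tested. By family number, the 6 of 11 listed members of family 4 (bicarbonate, with Slc4a1ap counted) and the 6 of 14 of family 9 (sodium-proton exchange, with Slc9a3r1 counted) were high shares. Family 22 (organic ions) had 1 of 25 listed, family 6 had 1 of 21 and family 2 (glucose) had 1 of 12. The heavy subunits of family 3 (0 of 2) and the nucleoside carriers of family 29 (0 of 4) had no member in the rows analysed here.

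**Figure D2:**
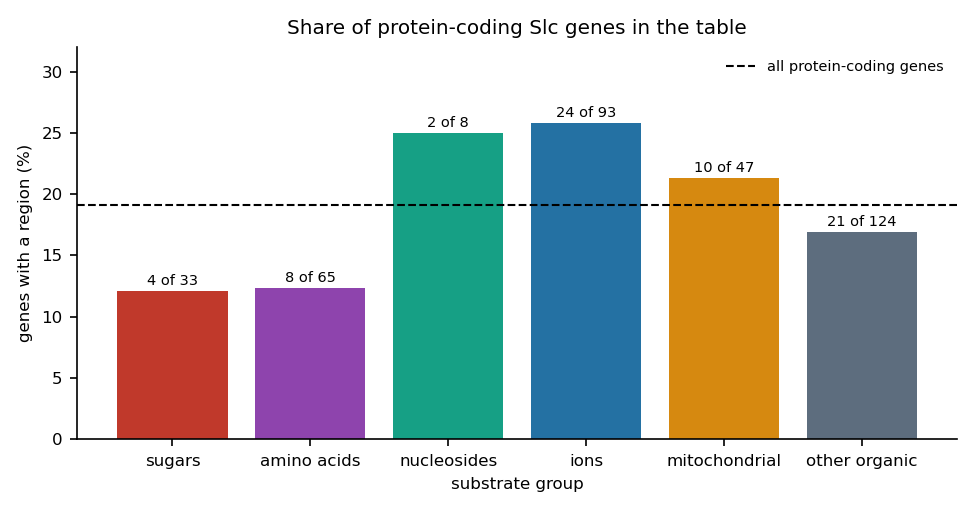
Percent of the protein-coding Slc genes of RefSeq that had a row in the table (vertical axis), by substrate group (horizontal axis), with the counts above the bars and the share of all protein-coding genes as a dashed line. Ion carriers stand at 25.8% and sugar carriers at 12.1%, against 19.1% of all protein-coding genes.

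Promoter sequences bear on the few regions that lie in them. RefSeq promoter windows (GRCm38.p6, the mm10 build, from 250 bases before to 50 after a start) were found for 55 of the 72 Slc genes. Of these 55, Slc38a9, Slc37a3 and Slc4a1ap had a region position inside a window of their own. The 250 bases before the start are shown for these 3, with any match to TTCNNNGAA in capitals. They are the Slc genes with a region in a RefSeq window of their own. By the deposited starts, Slc14a1 (185 bp) and Slc52a3 (159 bp) also had a region within 250 bases upstream of the start. Slc25a32 (204 bp), Slc9a8 (215 bp) and Slc25a25 (238 bp) had one within 250 bases of the start inside the gene. That motif reads the same on both strands and was searched in the whole window, where it was found in 8.3% of all 32851 windows and in 46.2% of the 437 windows that hold a region of any gene. Sequences run 5′ to 3′ on the gene's strand, for Slc38a9 at chr13:112660516-112660765 (plus strand), Slc37a3 at chr6:39377436-39377685 (minus strand) and Slc4a1ap at chr5:31526745-31526994 (plus strand).
Slc38a9: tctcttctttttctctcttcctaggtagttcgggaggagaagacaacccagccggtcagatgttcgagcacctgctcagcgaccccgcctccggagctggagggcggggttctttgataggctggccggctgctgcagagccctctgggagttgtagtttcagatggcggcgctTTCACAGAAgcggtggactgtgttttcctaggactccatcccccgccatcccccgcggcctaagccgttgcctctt
Slc37a3: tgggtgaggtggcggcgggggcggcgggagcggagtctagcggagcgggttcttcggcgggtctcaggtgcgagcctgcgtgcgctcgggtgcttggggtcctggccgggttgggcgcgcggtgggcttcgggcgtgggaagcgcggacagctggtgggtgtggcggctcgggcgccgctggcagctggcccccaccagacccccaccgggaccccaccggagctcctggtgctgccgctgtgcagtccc
Slc4a1ap: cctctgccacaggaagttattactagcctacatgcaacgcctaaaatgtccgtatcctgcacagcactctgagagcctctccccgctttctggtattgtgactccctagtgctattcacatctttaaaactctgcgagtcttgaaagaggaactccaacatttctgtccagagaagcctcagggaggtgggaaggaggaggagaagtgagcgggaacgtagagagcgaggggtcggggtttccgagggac
In Slc38a9 the region position was 94 bases before the start and 22 bases from the centre of the match, and the height there was 17 with IL-2 and 5 in control. The windows of Slc37a3 and Slc4a1ap held no match. The Slc37a3 region was 133 bases before the RefSeq start, which differs from the start in the deposited table. The Slc4a1ap window lies on a divergent promoter, and the region there was 54 bases before the start of Supt7l, a gene of a transcription coactivator complex, and 179 before that of Slc4a1ap.

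Counting windows of any gene, 10 held a region assigned to an Slc gene, and 4 of these 10 had the motif. Apart from Slc38a9 these were windows of genes nearer to the region than the Slc gene. Their matches are shown with 10 bases on each side, in capitals and on the strand of the gene, for Pih1d1 at chr7:45154289-45154317 (plus strand), Fastk at chr5:24445278-24445306 (minus strand) and Mapk14 at chr17:28692326-28692354 (plus strand).
Pih1d1: ggggcggggcTTCCGAGAAggccgcagtg
Fastk: acgtgcgcatTTCCCGGAAgcggagggcg
Mapk14: aagcgctcctTTCCCGGAAtttttttttt
The centre of the match was 1 base from the region position in Pih1d1, 73 in Fastk and 92 in Mapk14. The Mapk14 region lay 136 bases before a RefSeq start of that gene, which lies beyond the start in the deposited table. These regions are the ones assigned to Slc17a7, to Slc4a2, a bicarbonate exchanger with 18 with IL-2 and 5 in control, and to Slc26a8. A match describes the letters in the window and not a site in use. Of all 72 windows of the 55 Slc genes, 4 held the motif (5.56%).

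**Figure D3:**
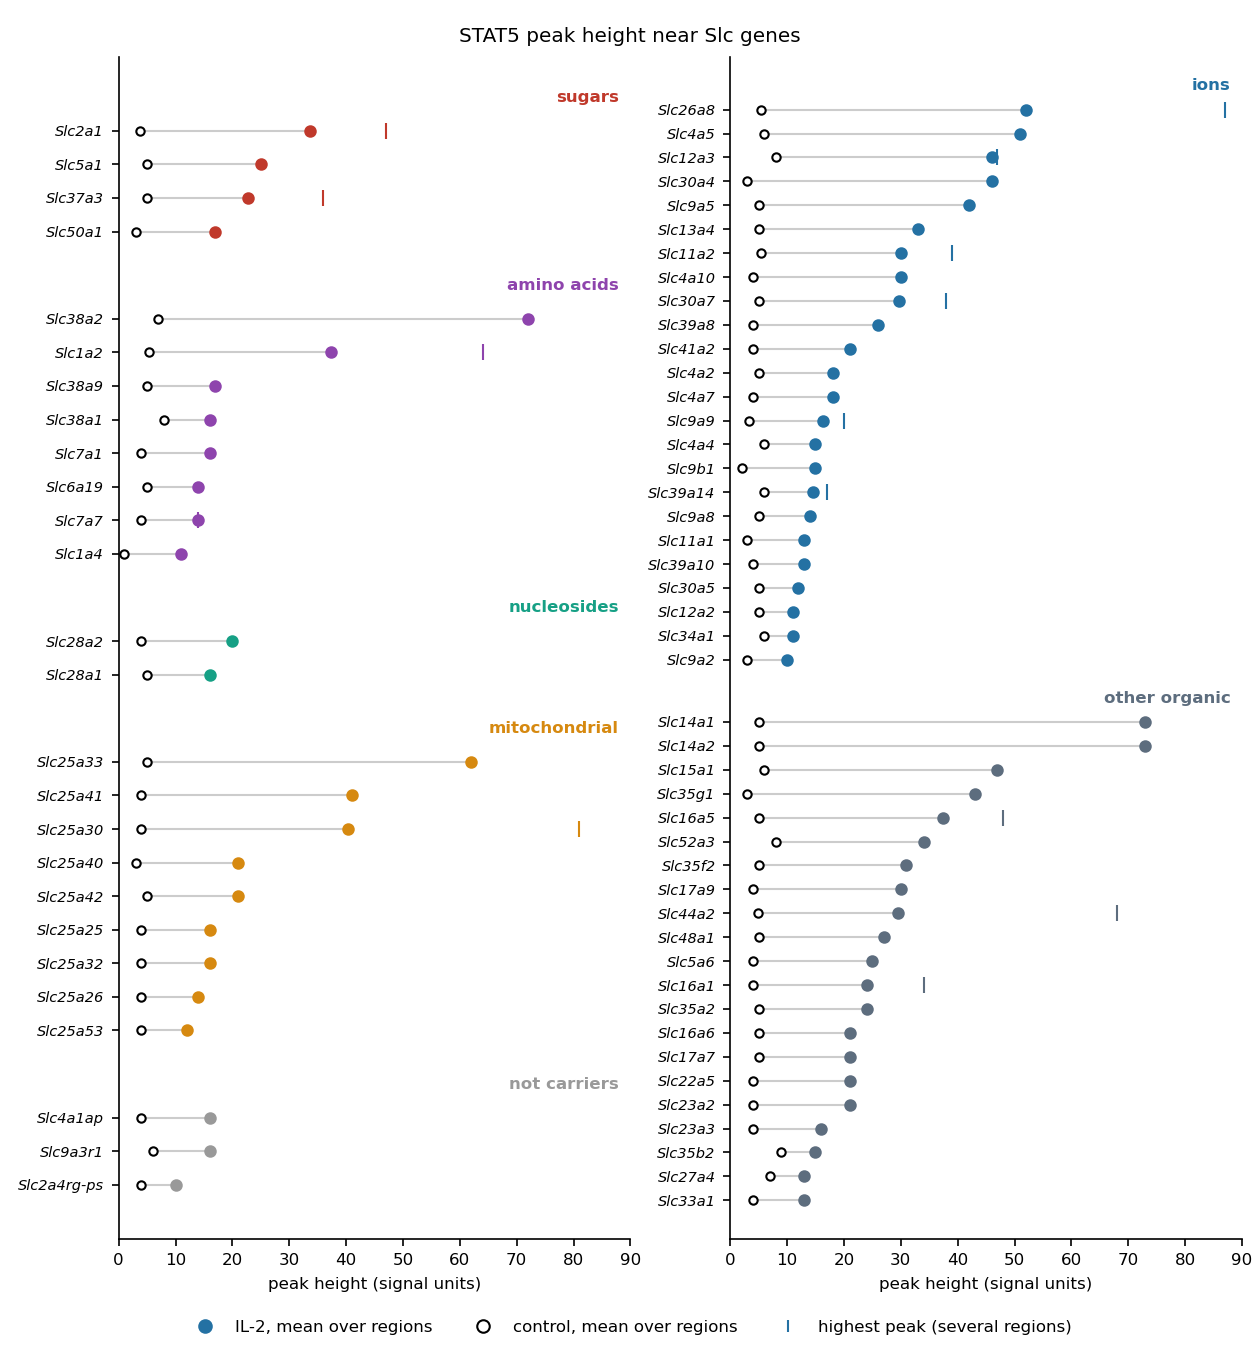
Mean peak height near 71 of the 72 Slc genes (horizontal axis, signal units) with IL-2 (filled circles, coloured by substrate group) and in control (open circles), and the highest peak for genes with several regions (vertical marks). IL-2 heights run from 10 to 73 and control heights from 1 to 9, and in every gene the IL-2 height is the higher, as the selection of the table favours.

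Sugar carriers were represented by 4 genes, each with a ratio of at least 2, which 83.8% of all listed genes reached. Slc2a1, the main glucose transporter of activated T cells, had 3 regions with a mean height of 33.7 with IL-2 and 3.67 in control (log2 ratio 2.16). The 3 regions lay inside the gene on chromosome 4, at 7431, 17303 and 18743 bp from its start. The first had a height of 14 with IL-2 and 3 in control. The others, whose heights could be told only as a pair, had 47 and 40 with IL-2, so the strong signal sat in the middle of the gene and not at its start. Both of these are also assigned to the microRNA gene Mir1957, which lies inside Slc2a1 with its start nearer to them. Slc5a1, a sodium-coupled glucose carrier known from the gut and kidney, had 1 region inside the gene with a height of 25 with IL-2 and 5 in control. Slc37a3, of the sugar phosphate family, had 3 regions with a mean of 22.7 with IL-2 and 5 in control. Its region at 29931 bp had a height of 12 with IL-2, and the pair near its start, at 139 bp inside and 1813 bp upstream, had 36 and 20 in an order that the table does not fix. Both regions of the pair are also assigned to Rab19, whose start lay 3860 and 1908 bp away. The lowest of the sugar carriers was Slc50a1, a sugar efflux carrier, with 17 with IL-2 and 3 in control. Its region lay downstream of it and 72 bp inside Dpm3, which encodes a subunit of an enzyme of protein glycosylation.

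Amino acid carriers were listed with 8 genes, of which 6 had a ratio of at least 2, and their median IL-2 height of 16 was below the 20.75 of all listed genes. Slc38a2, a sodium-coupled carrier of small neutral amino acids such as glutamine and alanine, stood apart from the rest with 72 with IL-2 and 7 in control (log2 ratio 2.68). Its region lay 8494 bp upstream of the gene at position 96708192 of chromosome 15, was assigned to no other gene, and was higher than at 96.1% of the listed genes. The neighbouring Slc38a1, a carrier of the same kind, had a region 67056 bp away with only 16 with IL-2 and 8 in control (log2 ratio 0.69). The heights of these neighbouring carriers with like substrates thus lay far apart with IL-2 and close together in control.

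Slc1a2, a glutamate carrier best known from astrocytes, had 3 regions inside the gene with a mean of 37.3 with IL-2 and 5.33 in control, and a highest peak of 64. The other amino acid carriers were low. Slc38a9, a lysosomal carrier that signals arginine to mTORC1, had 17 with IL-2 and 5 in control at the motif-bearing promoter shown earlier. Slc7a1, a carrier of arginine and lysine, had 16 with IL-2 and 4 in control at 1120 bp inside the gene. Slc1a4, a carrier of alanine, serine and cysteine, had 11 with IL-2 and 1 in control, the lowest control height of the 72 members. Slc6a19, a neutral amino acid carrier of gut and kidney, had 14 with IL-2 and 5 in control, a log2 ratio of 0.93. Slc7a7, a light subunit of cationic amino acid exchange, had 14 with IL-2 at each of 2 regions, against 3 and 5 in control. Both lay beside genes of mitochondria, at 35 bp inside Mrpl52 and 311 bp inside Oxa1l. Carriers known from activated T cells such as Slc7a5, Slc3a2 and Slc1a5 were not among the 72.

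Nucleoside carriers were represented by Slc28a2 and Slc28a1, which take up nucleosides together with sodium. Slc28a2 had 20 with IL-2 and 4 in control at 3443 bp inside the gene, and Slc28a1 had 16 with IL-2 and 5 in control at a region downstream of it. Both had a ratio of at least 2, as did 83.8% of all listed genes, and heights below the median of the table.

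Mitochondrial carriers, all of family 25, had a ratio of at least 2 in 9 of 10 genes, near the 83.8% of all listed genes. Their median IL-2 height was 21. Slc25a33, which carries pyrimidine nucleotides into mitochondria, was the highest with 62 with IL-2 and 5 in control (log2 ratio 2.74). Its single region lay 17243 bp inside the gene on chromosome 4 and was assigned to no other gene. Slc25a30, a carrier of small inorganic anions, had a highest peak of 81 and a mean of 40.3 with IL-2 over 3 regions, against 4 in control. The region nearest Cog3 had 16 with IL-2, so the peak of 81 and one of 24 belonged to the region 963 bp upstream of Slc25a30 and the region 17661 bp inside it, in an unknown order. Slc25a41, a carrier of adenine nucleotides, had 41 with IL-2 and 4 in control, but its region lay 525 bp upstream of Khsrp, which encodes an RNA-binding protein.

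Slc25a32, a carrier of folate, had 16 with IL-2 and 4 in control at 204 bp inside the gene, and Slc25a25, a carrier of adenine nucleotides and phosphate, had the same heights at 238 bp inside. The lowest were Slc25a26, the carrier of S-adenosylmethionine, with 14 with IL-2 and 4 in control, and Slc25a53 with 12 with IL-2 and 4 in control. The region of Slc25a53 was nearer to the start of Zcchc18, 6899 against 52046 bp. Nearer the middle of the group stood Slc25a40 (21 with IL-2, 3 in control) and Slc25a42 (21 with IL-2, 5 in control).

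Ion carriers made up the largest group with 24 genes, and their median IL-2 height was 18. Of the 24, 17 had a ratio of at least 2, a lower share than the 83.8% of all listed genes. The highest peak of all 72 members, 87, was assigned to Slc26a8, an anion carrier known from sperm, with a mean of 52 with IL-2 and 5.5 in control. Both of its regions lay inside Mapk14, which encodes the stress kinase p38 alpha, 1090 and 7234 bp from its start, and had heights of 87 and 17 with IL-2 in an unknown order. Slc4a5, a sodium-bicarbonate carrier, had 51 with IL-2 and 6 in control at a region 4932 bp inside Mthfd2, an enzyme of mitochondrial one-carbon metabolism. That region was the highest of the 3 regions of Mthfd2, whose highest peak was 51.

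Slc12a3, the sodium-chloride carrier of the kidney, had 46 with IL-2 and 8 in control over 2 regions, of 47 and 45 with IL-2. Both lay more than 40 kb from its start. The farther one, at 46728 bp, is also assigned to Herpud1 and lay nearer to it, 10564 bp upstream of its start. Herpud1 had a mean of 29.5 with IL-2 over 2 regions and a highest peak of 47, so the shared region was the one of 47. Slc30a4, which moves zinc into vesicles, had 46 with IL-2 and 3 in control (log2 ratio 2.67) at a region downstream of it that was assigned to no other gene. Slc9a5, a sodium-proton exchanger, had 42 with IL-2 and 5 in control, 514 bp upstream of its start and 226 bp inside Fhod1, which encodes a regulator of actin. Several of the highest ion carriers therefore shared their region with a gene of another function, while Slc30a4 did not.

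Zinc and other metal ion carriers of families 11, 30 and 39 held 8 of these genes. Slc11a2, an importer of iron, had 2 regions of 39 and 21 with IL-2 and a mean of 30, against 5.5 in control. Both are also assigned to Gm5475, whose start lay only slightly farther away. Slc30a7, a zinc carrier of the secretory pathway, had 3 regions inside the gene, of 38, 30 and 21 with IL-2 and a mean control height of 5. The one of 21 is also assigned to Extl2, at 3737 bp against 3694 bp for Slc30a7. Slc39a8, a zinc importer, had 26 with IL-2 and 4 in control at 525 bp inside the gene. Lower heights were found for Slc39a14 (14.5 with IL-2, 6 in control), Slc39a10 (13 with IL-2, 4 in control), Slc11a1 (13 with IL-2, 3 in control) and Slc30a5 (12 with IL-2, 5 in control). Slc9a9, an exchanger of endosomes, was the ion carrier with the most regions, 4 inside the gene, but their mean was 16.3 with IL-2 and 3.25 in control and the highest was 20. Slc34a1, a phosphate carrier of the kidney, had 11 with IL-2 and 6 in control, and Slc9a2, a sodium-proton exchanger, had the lowest height of a carrier, 10 with IL-2 and 3 in control. Slc12a2, the sodium-potassium-chloride carrier that helps set cell volume, had 11 with IL-2 and 5 in control. Slc9a8, a sodium-proton exchanger of the Golgi, had 14 with IL-2 and 5 in control at 215 bp inside the gene. With Slc9a8 counted, the other 8 ion carriers had heights from 14 to 33 with IL-2 and 2 to 6 in control.

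Carriers of other organic solutes numbered 21, of which 19 had a ratio of at least 2, with a median IL-2 height of 25. The highest mean heights of all members, 73 with IL-2 and 5 in control (log2 ratio 2.96), were those of the urea carriers Slc14a1 and Slc14a2. They share 1 region on chromosome 18, at 185 bp upstream of Slc14a1 and 454646 bp from the start of Slc14a2, so they count as 1 observation. Slc15a1, a peptide carrier of the gut, had 47 with IL-2 and 6 in control inside the gene. Slc35g1, a membrane protein of the nucleotide sugar family, had 43 with IL-2 and 3 in control at 716 bp upstream of its start, and no other gene was assigned to that region. Slc52a3, a carrier of riboflavin, had 34 with IL-2 and 8 in control at 159 bp upstream.

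Monocarboxylate carriers, which include the lactate carriers, were listed with 3 genes. Slc16a1, which carries lactate, had 24 with IL-2 and 4 in control over 2 regions, at 1580 bp upstream and 18868 bp inside the gene. Their heights were 34 and 14 with IL-2, in an unknown order. Slc16a5 had a region of 48 with IL-2 and 3 in control upstream of it and one of 27 with IL-2 and 7 in control downstream, but the microRNA gene Mir3968 and Armc7 lay nearer. Slc16a6 had 21 with IL-2 and 5 in control, with the start of Arsg nearer.

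Slc44a2, a carrier of choline, had the most regions of any member, 6, with a mean of 29.5 with IL-2 and 4.83 in control and a highest peak of 68. They ran from 7103 bp upstream to 12017 bp inside the gene. The first pair is also assigned to Ap1m2, whose highest peak was 33, so the peak of 68 belonged to one of the other 4 regions. The heights of its 6 regions added up to 177 with IL-2.

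Among the remaining carriers of organic solutes, Slc48a1, which carries heme, had 27 with IL-2 and 5 in control. Slc22a5, the carnitine carrier, and Slc23a2, a vitamin C carrier, each had 21 with IL-2 and 4 in control within 1 kb upstream of the start. Slc5a6, which carries biotin and other vitamins, had 25 with IL-2 and 4 in control at a region 720 bp inside Cad, which encodes the enzyme that starts pyrimidine synthesis. Slc27a4, a fatty acid carrier (13 with IL-2, 7 in control), Slc33a1, the acetyl-CoA carrier of the endoplasmic reticulum (13 with IL-2, 4 in control), and Slc35b2, which carries the sulfate donor of the Golgi (15 with IL-2, 9 in control), were the lowest. The region of Slc35b2 had the highest control height of the 72 and lay 141 bp inside Hsp90ab1, a heat shock protein gene. Those of Slc27a4 and Slc33a1 also had a nearer listed start, that of Urm1 at 605 bp and that of Gm20031 at 1968 bp. Control heights of 8 were held by Slc12a3, Slc38a1 and Slc52a3, and one of 7 by Slc38a2 and by Slc27a4.

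The set held 3 names that belong to no carrier. Slc9a3r1, a scaffold that binds sodium-proton exchangers, had 16 with IL-2 and 6 in control, and Slc4a1ap, named as an adaptor of an anion exchanger, had 16 with IL-2 and 4 in control. The pseudogene Slc2a4rg-ps had 10 with IL-2 and 4 in control at a region 1037 bp inside Lime1, which encodes an adaptor of T cell receptor signalling.

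Regions of some members lay within 1 Mb of each other on a chromosome. This spacing was not compared with that of all regions, so it does not show clustering of the Slc genes. On chromosome 11 the region of Slc9a3r1 lay 288064 bp from the nearer region of Slc16a5, with 16 and 48 with IL-2. The regions of Slc28a2 and Slc30a4 on chromosome 2 lay 250176 bp apart, with 20 and 46 with IL-2.

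The regions of the Slc genes lay in, before and behind genes at shares like those of the table. More of them lay near a start when the starts of all listed genes were counted. The 72 genes held 96 distinct regions of the 5703 in the table, in 97 pairs of gene and region. Of these pairs, 49 lay in the gene (50.5%), 31 upstream (32%) and 17 downstream (17.5%), against 50%, 29.7% and 20.3% of all pairs. Within 1 kb of the start of any listed gene lay 35 of the 96 regions (36.5%), against 27.5% of all regions, and within 5 kb 58 (60.4%), against 46%, differences that were not tested. An Slc gene start lay within 1 kb of only 22 of the 96 (22.9%), and for 20 of these it was the nearest listed start. Those 20 were 30.3% of the 66 regions nearest to an Slc start, closer to the 27.5% of all regions. Heights could be determined for 65 of the 96 regions, 32 of the 35 within 1 kb of a start and 33 of those elsewhere. Their median with IL-2 was 17.5 within 1 kb and 18 elsewhere. Over all regions, with heights determined for 1084 of 1569 within 1 kb and for 1403 elsewhere, these medians were 16 and 20. Regions without a height belong to genes with several regions, which had higher mean heights, and were more frequent elsewhere. These medians thus do not compare all regions of these places. Of the 5 highest single regions with a determined height, those of Slc14a1, Slc38a2, Slc25a33, Slc4a5 and Slc16a5, 4 lay more than 5 kb from the start of their Slc gene. However, the Slc4a5 region was 4932 bp from the start of Mthfd2, and the Slc16a5 region 3972 bp from that of Mir3968. Only those of Slc38a2 and Slc25a33 were thus beyond 5 kb of any listed start.

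**Figure D4:**
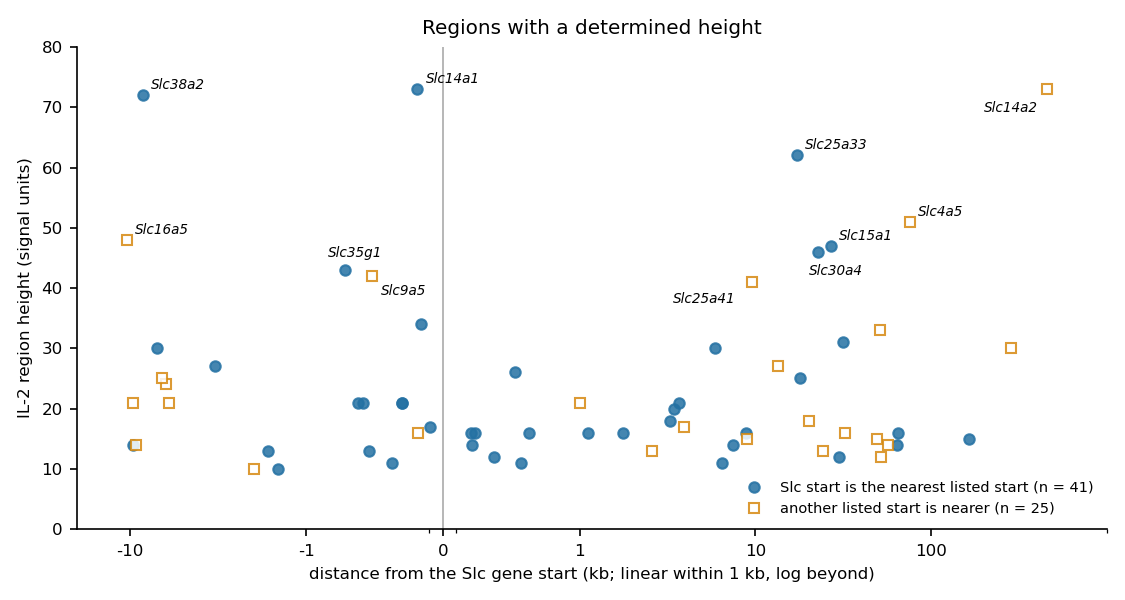
IL-2 height of each region with a determined height, shown once for each Slc gene it is assigned to (vertical axis, signal units) against its distance from the start of the Slc gene (horizontal axis, kb, linear within 1 kb and log beyond), negative upstream. Filled circles are regions whose nearest listed start is the Slc gene and open squares those with a nearer listed start. Heights above 40 occur among both kinds, and within 1 kb they are those of Slc14a1, Slc35g1 and Slc9a5.

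Many regions were listed for more than 1 gene, and the data do not show which of them a region acts on. At least 1 region was shared with another listed gene for 42 of the 72 Slc genes (58.3%), against 61.6% of all listed genes. For 23 of them (31.9%) every region had another listed gene start nearer, against 29% of all listed genes. These 23 had a median IL-2 height of 21 (19 with a ratio of at least 2), and the 49 nearest to at least 1 of their regions also one of 21 (39 with a ratio of at least 2). Of all listed genes, 83.8% had a ratio of at least 2. Another listed start was nearer for 13 of 17 downstream pairs of Slc gene and region, against 1140 of 1695 downstream pairs of all listed genes. It was nearer for 12 of 31 upstream pairs, against 1018 of 2473, and for 6 of 49 pairs inside the gene, against 471 of 4169, so the same order of places was seen in the whole table. Further examples include Slc35a2, whose region of 24 with IL-2 and 5 in control lay 306 bp upstream of Pim2, a kinase gene induced by cytokines. Slc25a40 shared a region of 21 with IL-2 and 3 in control with Dbf4, a regulator of DNA replication, and Slc4a10 one of 30 with IL-2 and 4 in control inside Dpp4, a cell surface peptidase. Slc17a7, a vesicular glutamate carrier of neurons, had 21 with IL-2 and 5 in control at a region 9617 bp upstream that was 94 bp upstream of the listed start of Pih1d1.

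**Figure D5:**
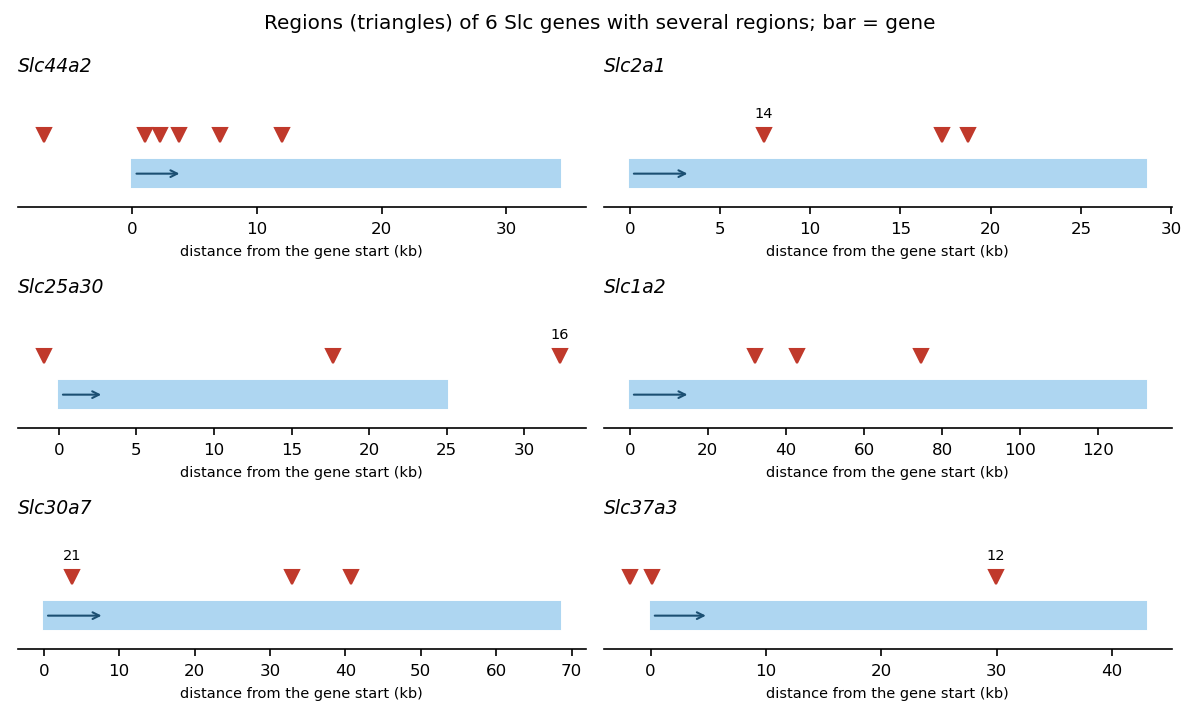
Position of each region (triangles) relative to the gene start (horizontal axes, kb) and the gene body (bars, arrow at the start) for 6 of the 7 Slc genes with 3 or more regions. Numbers give the IL-2 height where the table determines it for a single region, as for the region of 14 in Slc2a1, and 5 of the 6 regions of Slc44a2 lie in the part of the gene next to its start.

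Genes that act on what the carriers bring in were set beside them from chosen lists of known members. Of 27 genes of amino acid sensing and mTORC1, 9 were listed (33.3%), against 19.1% of all protein-coding genes, and 7 of the 9 reached a ratio of 2, as did 83.8% of the whole table. These shares, 19.1% and 83.8%, are the background of each list that follows too. The sensing genes were led by Rraga, a GTPase that recruits mTORC1 to the lysosome (62 with IL-2, 5 in control), Mlst8 (39 with IL-2, 3 in control) and Mtor (31 with IL-2, 5 in control). Of 18 genes of glycolysis and lactate 4 were listed (22.2%), each with a ratio of at least 2, of which Eno1 (74 with IL-2, 7 in control) and Hk2 (34.6 with IL-2, 5.6 in control) were the highest. Glutamine and one-carbon metabolism had 6 of 16 genes listed (37.5%), 5 of the 6 with a ratio of at least 2, which is near the background. Nucleotide synthesis had 6 of 20 listed (30%), 4 of the 6 with a ratio of at least 2, a lower share than the background. Among other membrane transporters, 13 of 50 ATP-binding cassette genes were listed (26%, 12 of the 13 with a ratio of at least 2, median IL-2 height 22), 3 of 17 sodium and calcium pump genes, 2 of 11 aquaporin genes and 1 of 14 Slco genes. The share with a region was thus 33.3% for amino acid sensing genes and 12.3% for amino acid carriers as grouped by family number. The difference between these lists was not tested.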

How the data were processed

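STAT5 ChIP-seq was measured in 1 IL-2 library and 1 control library of sorted mouse CD8 T cells. The submitters' processing notes name BWA and mm10. Peak caller, read extension, depth and scaling were not stated in any label or header. Counting error is therefore unknown. The authors deposited 1 table of genes near regions, whose heights are a signal per library, with the interval names, distances and the highest peak. No column of other samples was present (0 columns).

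The members and lists were chosen with earlier results of these data known. Families were grouped by substrate from their numbers, and Slc5a6 was moved by its vitamin substrates after the members were seen. Likewise Slc9a3r1, Slc4a1ap and Slc2a4rg-ps were set apart as no carriers. For the log2 ratio, 5 was added to both heights and the IL-2 value was divided by the control value, which understates the fold of low heights. Region positions were computed from gene start and distance, and were the same from every gene for 5703 of 5703 regions. For 2487 regions a height of their own followed from the means of the genes that list them. That step was tested on simulated whole-number heights averaged over the same regions. The test covers the calculation and cannot show that the deposited means are plain means of such heights. For genes with a pair of undetermined regions, heights followed from the sum and the highest peak. Nearness was counted among listed gene starts. Promoter windows and gene identifiers were those of RefSeq GRCm38.p6. Python 3.11.15, pandas 2.3.3, numpy 2.4.6, networkx 3.6.1 and matplotlib 3.10.9 were used.

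All sugar, amino acid and nucleoside carriers were named. Of the ion, mitochondrial and other groups, the 5 highest and 2 lowest by IL-2 height were named, as were genes with a highest peak of at least 80, with 4 or more regions, with a region within 250 bp of the start, or with the 5 highest control heights. Further genes were named after their values were seen, and a few genes that these rules or the marker lists hold are not reported here. Alternatives were pseudocounts of 1 and 10, ratios of 1.5 and 4, scaling to equal medians, genes of higher signal, the highest peak, single-region genes, genes without a nearer neighbour, sets without regulators or repeated regions, and a distance of 5 kb. No test of IL-2 against control was possible with 1 library in each group.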

Additional observations from a re-analysis of the deposited data

How the results depend on the processing

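No paired analysis was possible because a group is a single library, and for the same reason no replicate could be left out. At least a ratio of 2 was seen in 58 Slc genes as deposited, in 6 after scaling to equal medians, in 35 of the 45 genes that share no region with a nearer gene, and a ratio of at least 4 in 15. Apart from the signal filter, the other alternatives kept this count within 1.5 times. Their median log2 ratio was 1.49, and it was 2.09 with pseudocount 1, 1.11 with pseudocount 10 and 0.19 after scaling. The share of regions within 1 kb of a start (36.5%) became 60.4% within 5 kb. With scaling, the counts with a ratio of at least 2 were 0 sugar, 1 amino acid, 0 nucleoside, 1 ion, 1 mitochondrial and 3 other organic carriers, and 0 of the genes that are no carriers. With a pseudocount of 10 they were 4 sugar, 2 amino acid, 1 nucleoside, 13 ion, 6 mitochondrial and 17 other organic carriers. None of the genes that are no carriers passed then, and all 3 of those passed with a pseudocount of 1. The share of all listed genes was 11.9% with scaling, and was not computed with pseudocounts of 1 and 10. Among the 58 single-region genes 45 had a ratio of at least 2, with 2 of 2 sugar carriers, against 2627 of all 3292 listed genes with 1 region. The signal filter kept genes whose mean of both heights was at least the median of all listed genes. Control heights being low, the IL-2 height decided which genes passed it, so a ratio of at least 2 in 35 of 35 genes (2 of 2 amino acid, 10 of 10 ion and 5 of 5 mitochondrial carriers) and a median log2 ratio of 1.96 follow from the filter and say nothing of stability. No nucleoside carrier or gene that is no carrier passed it. The smaller sets hold fewer genes by construction. Of 68 alternatives 44 kept the value and 24 moved it, and the median IL-2 height of 21 moved in none of its alternatives. Scaling removes any overall difference between libraries by construction, and depth is unknown.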
